A study of Mus musculus with 4 samples.

Results

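Genes of the interferon response and of antigen presentation were followed in the hippocampus of mice exposed to ATO during development and of untreated mice. The genes were chosen by symbol: the H2 genes of the mouse major histocompatibility complex (MHC), the Ifi, Ifit, Ifitm, Oas and guanylate-binding protein (Gbp) families, the interferon regulatory factors (Irf), Stat genes, the immunoproteasome subunits, the peptide transporters, the interferon receptors, and B2m, Cd74, Isg15, Bst2, Rsad2 and Tapbp. Of the 15713 genes in the deposited table, 64 fell under this rule. RNA sequencing was done on 4 libraries from C57BL/6 mice, an inbred strain, at 11 to 12 weeks of age. The 2 control libraries came from untreated mice, and the 2 ATO libraries came from mice given ATO at 5000 ppb as a developmental exposure. ATO is not written out in the labels, and the series title names arsenic-exposed offspring. Whether the libraries of a group stem from different litters or animals is not stated, and p-values therefore measure only the spread between these libraries, which may be technical. The design of the series compares the hippocampal transcriptomes of these groups.

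Interferons are secreted signals that cells release on infection or danger. Type I interferon binds the receptor chains IFNAR1 and IFNAR2, and interferon gamma binds IFNGR1 and IFNGR2; kinases on the receptors then activate factors of the STAT family, among them STAT2, which with IRF9 switches on a large set of antiviral genes. Interferon gamma also raises MHC genes. Class I molecules, paired with beta-2-microglobulin, show peptides from inside the cell to cytotoxic T cells on nearly all cell types, whereas class II molecules, loaded with the help of the invariant chain CD74, show peptides from outside to helper T cells and are made mainly by professional antigen-presenting cells. In the healthy brain parenchyma such class II expression is low, and much of it lies in macrophages at the borders of the brain.

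The counts summed to between 14832214 and 17251032 per library, so that 1 count was worth 0.0580 to 0.0674 CPM, the count scaled to a fixed library size. All 10 genes of a list of hippocampal neuron markers were counted, at a summed level of 3776 to 3998 normalised CPM in each library. Snap25 alone accounted for 1872 to 2024 CPM, so the sum rests largely on 1 gene. Of the 10, Wfs1 fell (log2 fold change -0.42, edgeR adjusted p = 0.0463). The tissue label was not tested further. The largest difference between the groups lay outside the interferon genes. The summed level of 12 choroid plexus markers was 136 and 208 CPM in the controls against 3279 and 4114 in ATO. Ttr alone was at 20.4 and 61.8 CPM in the controls against 2286 and 2873 in ATO. The ATO sum thus rests largely on 1 gene. Tmem72, Aqp1, Kcne2, Slc4a5, Cldn2, Otx2 and Folr1 were under 1 CPM in both controls. They therefore had to be higher in ATO to be in the table. The part of this difference in the results on the interferon genes was not tested. RNA came from whole tissue, in which fewer cells of a type and less RNA per cell cannot be told apart.

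Among the 64 genes, 2 rose in ATO and 0 fell. They were the class II chain gene H2-Aa, by 3.85-fold, and Gbp2, which encodes a guanylate-binding protein, by 2.54-fold. Both folds come from the fitted log2 fold change. A gene is said to have risen or fallen where the quasi-likelihood test of edgeR gave an adjusted p under 0.05 (Benjamini-Hochberg, over all 15713 genes). That threshold was passed by 3.73% of all genes, 2.87% upwards and 0.859% downwards, so 2 of 64 is close to the background. The interferon receptors, Stat2, Irf1 and the antiviral genes Isg15, Ifit2 and Ifit3 did not pass. The log2 fold changes of these 9 genes lay between -0.26 and 0.19. Rsad2, Ifitm3, Bst2, Ifit1 and Irf9 did not pass either, but lay higher, at 0.95, 0.74, 0.66, 0.65 and 0.54. The 17 antiviral and other induced genes had a median of 0.41, with 13 above 0 and 4 below. Across the 64 genes the log2 fold change was above 0 in 50 and below 0 in 14, against 49% above 0 among all genes. Its median was 0.20 in the 64 genes and -0.005 in all genes. H2-Ob, under 1 CPM in both controls, had to be higher in ATO to be in the table, and it is among the 50. Both ATO libraries lay above both controls for 22 of the 64 genes (24.8% of all genes) and below both for 4 (23.4% of all genes). An unadjusted p under 0.05 was reached by 17 genes, 16 of them higher in ATO and 1 lower; of all genes 18.1% reached it, 10.6% upwards and 7.55% downwards. For 39 of the 64 genes the 95% interval of the log2 fold change lay within a 2-fold change in either direction. The same held for 13416 of all 15713 genes, so the share was smaller among the 64.

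**Figure D1:**
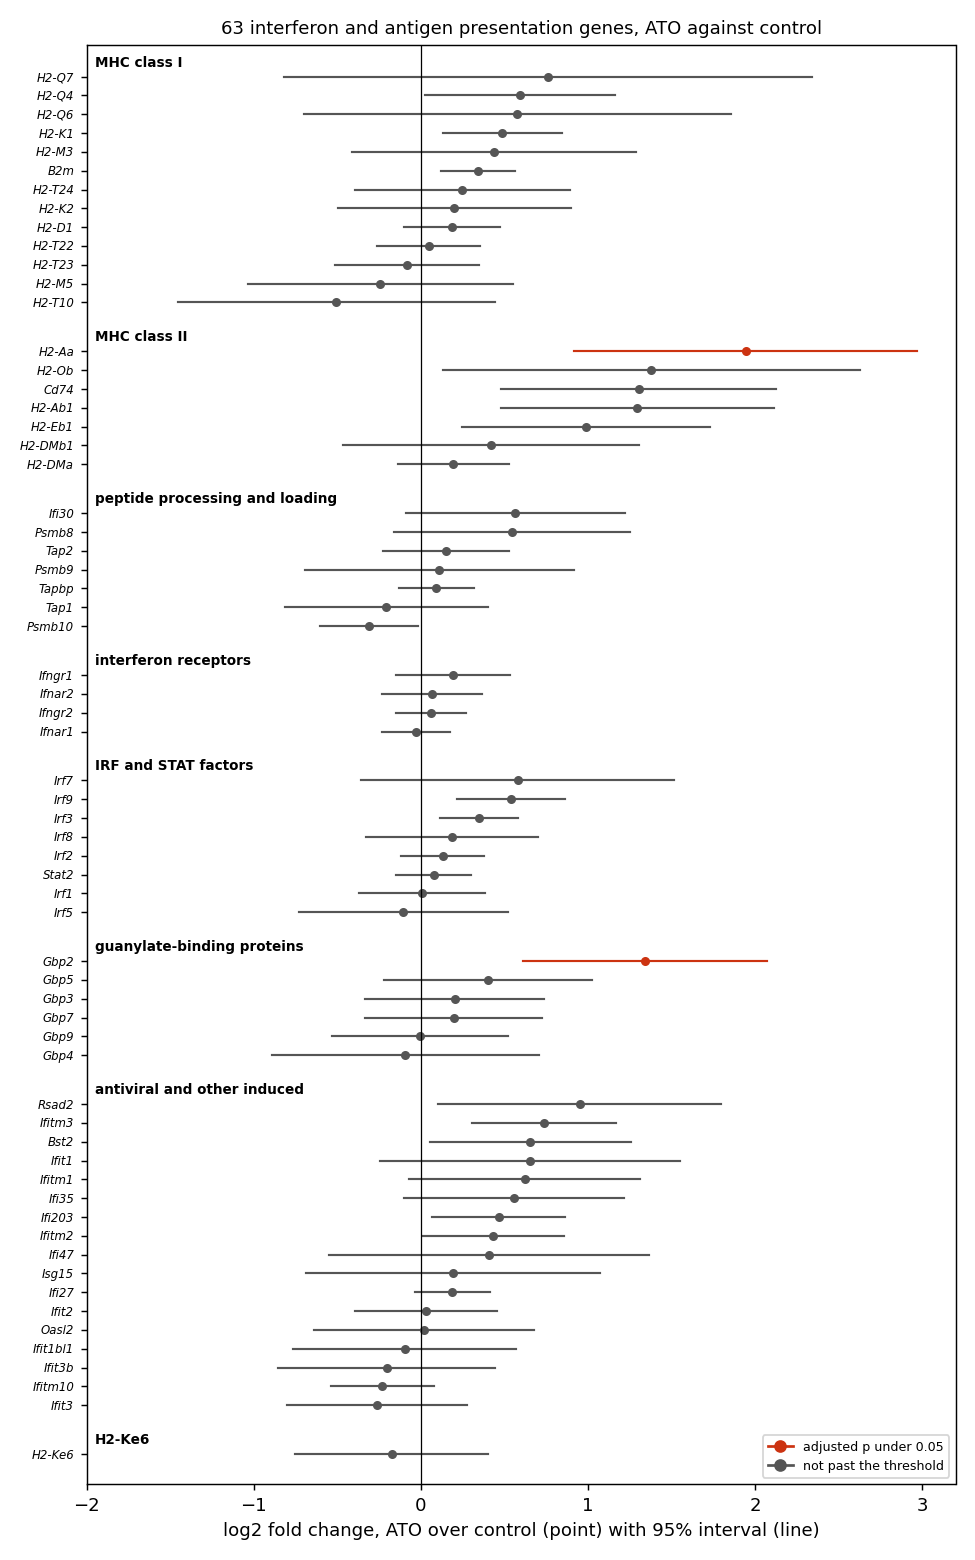
Fitted log2 fold change of ATO over control (point) and its 95% interval (line) for 63 of the 64 genes, ordered by role and within each role by size; red marks an adjusted p under 0.05. Only H2-Aa at 1.94 and Gbp2 at 1.34 are red, the 7 class II genes all lie to the right of 0, and the 4 receptor genes lie close to 0 with short intervals. For H2-Ob, under 1 CPM in both controls, that side was set by the level needed to be in the table.

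The promoters of these genes carry short sequences through which interferon and the class II machinery act, and 6 are shown because they set genes with different behaviour side by side: Gbp2 and H2-Aa, which rose, and H2-Eb1, B2m, Rsad2 and Isg15, which did not pass. The sequences are from RefSeq on GRCm38.p6, 5′ to 3′ on the strand of the gene, and end just before the RefSeq start, or, for Gbp2, shortly after the start of the GENCODE gene model, which lies further upstream. Capitals mark matches, on either strand, to the interferon-stimulated response element (GAAA, any 2 bases, GAAA), bound by a complex that holds STAT2 and IRF9, to the gamma-activated site TTCNNNGAA, through which interferon gamma acts, and to CCAAT, the core of the Y box of MHC promoters. Matches to a motif may overlap each other or another motif.
Gbp2, chr3:142620413-142620625, plus strand: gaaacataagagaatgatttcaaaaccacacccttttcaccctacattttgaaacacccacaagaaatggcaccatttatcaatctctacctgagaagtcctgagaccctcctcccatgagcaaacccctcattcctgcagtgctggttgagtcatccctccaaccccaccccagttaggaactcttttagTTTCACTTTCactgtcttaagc
Rsad2, chr12:26456453-26456702, minus strand: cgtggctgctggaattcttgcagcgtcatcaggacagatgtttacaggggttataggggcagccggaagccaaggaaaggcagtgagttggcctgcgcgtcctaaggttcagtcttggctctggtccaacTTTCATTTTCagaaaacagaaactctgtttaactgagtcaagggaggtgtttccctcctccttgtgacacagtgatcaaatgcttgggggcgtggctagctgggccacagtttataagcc
Isg15, chr4:156200819-156201068, minus strand: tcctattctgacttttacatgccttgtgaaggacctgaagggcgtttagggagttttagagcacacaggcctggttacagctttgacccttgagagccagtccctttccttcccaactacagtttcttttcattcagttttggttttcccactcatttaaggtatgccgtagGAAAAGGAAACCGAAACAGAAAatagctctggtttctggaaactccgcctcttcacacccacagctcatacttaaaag
B2m, chr2:122147437-122147686, plus strand: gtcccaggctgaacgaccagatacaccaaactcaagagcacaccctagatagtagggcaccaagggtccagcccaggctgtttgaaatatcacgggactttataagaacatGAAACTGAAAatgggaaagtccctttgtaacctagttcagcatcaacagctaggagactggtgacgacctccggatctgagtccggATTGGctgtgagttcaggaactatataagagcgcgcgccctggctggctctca
H2-Aa, chr17:34287824-34288073, minus strand: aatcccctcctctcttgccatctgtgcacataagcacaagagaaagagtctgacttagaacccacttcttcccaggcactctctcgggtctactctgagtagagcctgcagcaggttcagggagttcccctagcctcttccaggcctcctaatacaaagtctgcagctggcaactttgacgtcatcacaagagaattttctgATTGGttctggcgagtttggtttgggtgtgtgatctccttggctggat
H2-Eb1, chr17:34305617-34305866, plus strand: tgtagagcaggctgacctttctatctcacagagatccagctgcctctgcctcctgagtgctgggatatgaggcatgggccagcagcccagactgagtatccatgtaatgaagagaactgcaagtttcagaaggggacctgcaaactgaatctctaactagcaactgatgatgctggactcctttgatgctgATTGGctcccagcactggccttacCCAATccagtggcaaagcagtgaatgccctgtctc
In Gbp2 the response element (TTTCACTTTC) stood 59 bases before the RefSeq start, just inside the GENCODE gene model. It stood 120 bases before the start in Rsad2 and 139 bases before it in B2m (GAAACTGAAA). Isg15 held 3 overlapping matches, beginning 78, 72 and 66 bases before the start. The stretches of H2-Aa and H2-Eb1 held no response element, but ATTGG, the reverse complement of CCAAT, stood 48 and 59 bases before their starts, and H2-Eb1 held a second match, CCAAT, 35 bases before its start.

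RefSeq promoters, each from 250 bases before to 50 after the start, were at hand for 54 of the 64 genes, with 65 promoters in all. The response element matched 20 of these 65 promoters (30.8%), against 3.44% of all 32851 promoters in the table. It matched 4 of 5 promoters of guanylate-binding protein genes and 11 of 21 in the antiviral group, but 0 of 6 class II promoters. The gamma-activated site matched 20% of the promoters of the 64 genes and 8.3% of all promoters, and CCAAT matched 49.2% and 37.4%. CCAAT was in 10 of 11 class I and 5 of 6 class II promoters. The class II counts leave out H2-Ab1 and Cd74, for which no promoter was at hand. The median log2 fold change was 0.20 in the 19 genes with a response element and 0.19 in the 35 without, and 1 gene of each set rose. Both ATO libraries lay above both controls in 9 of the 19 and 10 of the 35, against 24.8% of all genes. An unadjusted p under 0.05 was reached by 7 and 8, against 18.1% of all genes. The difference between the sets was not tested. These matches are a description of the letters, and absence of a match says nothing about the factor.

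The MHC class II genes held the largest differences of the 64. H2-Aa (ENSMUSG00000036594, chr17:34282744-34287823, minus strand, GRCm38), the alpha chain of the class II molecule I-A, was at 1.29 and 0.662 normalised CPM in control replicates 1 and 2 and at 5.51 and 1.99 in ATO replicates 1 and 2. Both ATO libraries lay above both controls, but ATO replicate 1 stood 2.77-fold above ATO replicate 2. These levels rest on 19, 10, 96 and 33 counted reads. The log2 fold change was 1.94 ± 0.48 (SE, n = 2 per group) with an edgeR adjusted p of 0.0396. The call did not hold without ATO replicate 1 (log2 fold change 1.02, adjusted p = 0.459), without control replicate 2 (1.54, adjusted p = 0.265) or without control replicate 1 (2.498, adjusted p = 0.0760), nor in limma-voom (adjusted p = 0.0820).

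The other chains of the classical class II molecules followed the same order of libraries without passing the threshold. H2-Ab1, the beta chain that pairs with H2-Aa, was at 1.29 and 0.993 CPM in the controls against 3.56 and 2.05 in ATO (log2 fold change 1.30 ± 0.38, edgeR adjusted p = 0.0780). It was at 1.64 without ATO replicate 2 and at 0.84 without ATO replicate 1. H2-Eb1, the beta chain of I-E, was at 1.56 and 1.13 in the controls against 2.99 and 2.35 in ATO (0.99 ± 0.35, edgeR adjusted p = 0.141). Cd74, the invariant chain that guides class II molecules to the compartment where they load peptide, was at 4.68 and 1.79 in the controls against 10.9 and 4.997 in ATO (1.30 ± 0.39, edgeR adjusted p = 0.0787). For Cd74 the gap between the controls was 2.62-fold and that between the ATO libraries 2.18-fold, and control replicate 1 nearly reached ATO replicate 2. Without control replicate 1 its log2 fold change was 2.16 and without ATO replicate 2 it was 1.76. Without ATO replicate 1 it was 0.63 and without control replicate 2 it was 0.77. In each of these fits the group with 1 library is assumed to vary like the other group.

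The peptide exchange factors of the class II pathway differed less. H2-DMa, a subunit of the DM molecule that helps peptides onto class II, was the most abundant class II gene per length, at a mean of 4.16 FPKM (the deposited count of fragments per transcript length and library size). It was at 14.4 and 12.4 CPM in the controls against 13.7 and 17.04 in ATO, a log2 fold change of 0.19 ± 0.16 with overlapping groups. H2-DMb1, the partner subunit, had a log2 fold change of 0.42 ± 0.41. H2-Ob, a chain of the DO molecule that restrains DM, had 2 and 11 reads in the controls against 22 and 17 in ATO, too few to fix its size (1.38 ± 0.58, edgeR adjusted p = 0.226). In all, 7 of 7 class II genes had a log2 fold change above 0 and 1 rose, with a median of 1.30. H2-Ob is counted here. It was under 1 CPM in both controls, so it had to be higher in ATO to be in the table. ATO replicate 1 was the highest library for 6 of the 7, and control replicate 2 the lowest for 6 of the 7.

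**Figure D2:**
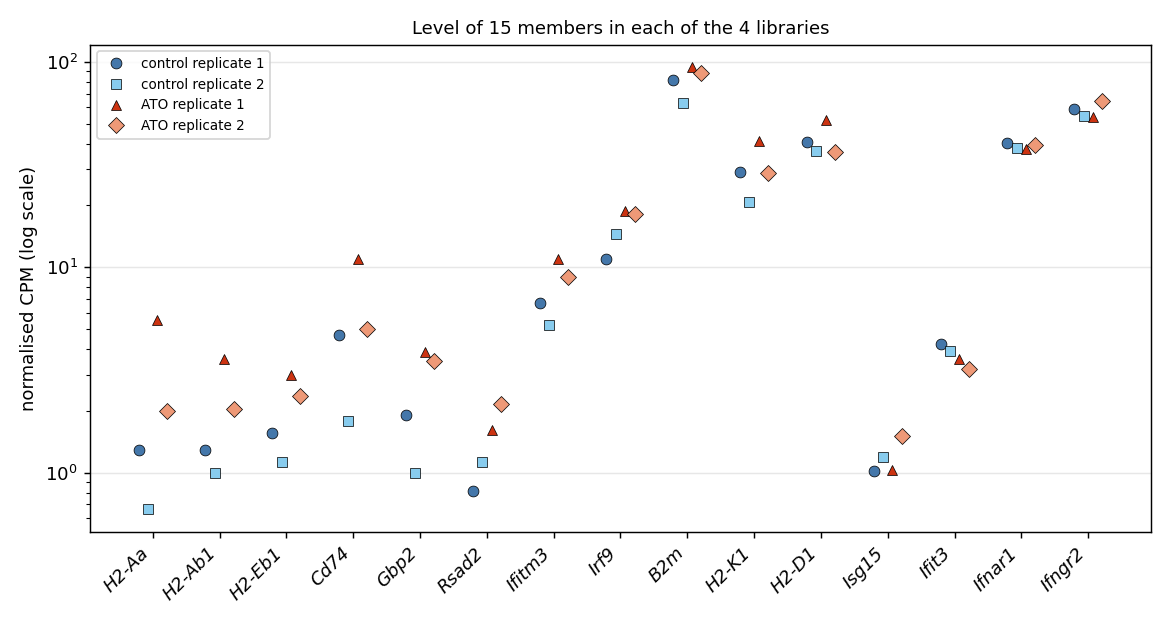
Normalised CPM on a log axis for 15 of the genes in each of the 4 libraries, with circles and squares for control replicates 1 and 2 and triangles and diamonds for ATO replicates 1 and 2. H2-Aa and Cd74 are spread widely within each group, as with 5.51 and 1.99 for H2-Aa in ATO, H2-Ab1 and H2-Eb1 less so, while Isg15, Ifnar1 and Ifngr2 overlap between the groups.

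Of the 13 class I genes 0 passed the threshold, and their median level was 1.89 FPKM, against 0.77 for the class II genes. B2m (ENSMUSG00000060802, chr2:122147686-122153083, plus strand), the light chain shared by class I molecules, was at 81.3 and 63.04 CPM in the controls against 94.5 and 88.4 in ATO. The ATO libraries were both higher, although the gap from control replicate 1 to ATO replicate 2 was smaller than that between the controls, and the log2 fold change was 0.34 ± 0.10 (edgeR adjusted p = 0.0877). H2-K1, a classical class I heavy chain, was at 29.2 and 20.7 in the controls against 41.2 and 28.7 in ATO (0.49 ± 0.17, edgeR adjusted p = 0.134). H2-D1, the other classical heavy chain measured, was at 40.9 and 36.8 in the controls against 51.9 and 36.5 in ATO (0.19 ± 0.14, edgeR adjusted p = 0.508). For both heavy chains ATO replicate 2 lay within or below the range of the controls, so the groups overlapped. For H2-D1 the sign turned to -0.091 without ATO replicate 1, and the gene was at 0.42 without ATO replicate 2. Without ATO replicate 2, H2-K1 was at 0.73 and B2m at 0.39. B2m was at 0.54 without control replicate 1. In the other direction, B2m was at 0.17 without control replicate 2. H2-K1 was at 0.20 without ATO replicate 1 and at 0.26 without control replicate 2. In each of these fits the group with 1 library is assumed to vary like the other group.

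Among the non-classical class I genes, H2-Q4 was at 6.10 and 3.38 CPM in the controls against 8.15 and 6.14 in ATO (log2 fold change 0.60 ± 0.27, edgeR adjusted p = 0.254). H2-T22 and H2-T23, the second of which encodes the ligand Qa-1 of receptors on natural killer cells, were at 0.05 ± 0.14 and -0.08 ± 0.20. H2-T24, H2-K2 and H2-M3, whose product presents peptides with a formylated start, lay between 0.20 and 0.44, and H2-M5 and H2-T10 were at -0.24 and -0.51, each with overlapping groups except H2-T10. A pair of neighbouring genes differed more within the groups than between them. H2-Q7 was at 1.36 and 0.265 CPM in the controls against 2.41 and 0.301 in ATO, so that replicate 1 exceeded replicate 2 by 5.12-fold in control and 8.01-fold in ATO. H2-Q6 had the same order, with 1.70 and 0.464 in the controls against 2.53 and 0.662 in ATO. Of the distinct 50-base stretches in H2-Q6 transcripts 32.0% also occur in transcripts of other genes, most often H2-Q7. For H2-Q7 the share was 26.4%, most often with H2-Q10, so reads may be exchanged among these genes. The class I median was 0.25, with 10 of 13 above 0.

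Genes that cut peptides and load them onto MHC molecules did not pass, 0 of 7, and their median was 0.11. Psmb8, a catalytic subunit of the immunoproteasome, was at 2.31 and 2.19 CPM in the controls against 4.19 and 2.35 in ATO (log2 fold change 0.54 ± 0.33, edgeR adjusted p = 0.419). Psmb10, another of its subunits, was at 19.7 and 19.7 in the controls against 14.1 and 17.7 in ATO, a log2 fold change of -0.31 ± 0.14 (edgeR adjusted p = 0.251). It is the 1 gene of the 64 that had an unadjusted p under 0.05 downwards. Psmb9, the third subunit, was at 0.11 ± 0.38.

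Tap1, a chain of the transporter that carries peptides into the endoplasmic reticulum, was at 3.60 and 3.51 CPM in the controls against 3.67 and 2.47 in ATO (log2 fold change -0.21 ± 0.28), and its partner Tap2 was at 0.15 ± 0.18. Tapbp, the tapasin that bridges the transporter and class I molecules, was at 29.5 and 27.8 in the controls against 29.3 and 31.7 in ATO (0.09 ± 0.10). Ifi30, a thiol reductase that unfolds antigens in the class II compartment, was at 1.76 and 2.52 in the controls against 3.10 and 3.25 in ATO, with both ATO libraries higher (0.57 ± 0.31, edgeR adjusted p = 0.357).

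The interferon receptors had the smallest median SE of the groups, and 0 of 4 passed. Ifnar1 was at 40.3 and 38.01 CPM in the controls against 37.5 and 39.1 in ATO, a log2 fold change of -0.03 with a 95% interval from -0.23 to 0.17. Ifnar2 was at 14.4 and 17.7 in the controls against 17.2 and 16.5 in ATO (0.07, interval from -0.23 to 0.36). Ifngr1, the ligand-binding chain for interferon gamma, was at 13.4 and 10.7 in the controls against 12.9 and 14.6 in ATO (0.19, interval from -0.15 to 0.53). Ifngr2, its signalling partner, was at 58.9 and 54.4 in the controls against 54.02 and 64.2 in ATO (0.06, interval from -0.15 to 0.27). The groups overlapped for all 4 genes, and each interval lay inside a 2-fold change.

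Of 9 Irf and Stat genes 0 passed the threshold, with a median log2 fold change of 0.13. Stat2, which carries the signal of type I interferon from the receptor, was at 29.4 and 33.6 CPM in the controls against 33.4 and 33.1 in ATO, with overlapping groups (log2 fold change 0.08, 95% interval from -0.15 to 0.30). Its DNA-binding partner Irf9 (ENSMUSG00000002325, chr14:55603571-55610030, plus strand) was at 10.9 and 14.5 in the controls against 18.8 and 18.2 in ATO. Both ATO libraries lay above both controls, at a log2 fold change of 0.54 ± 0.15 (edgeR adjusted p = 0.0636). Irf9 passed without control replicate 2 (0.76, adjusted p = 0.0466), while without control replicate 1 it was at 0.35 (adjusted p = 0.219).

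Irf3, which responds to sensors of viral nucleic acid, was at 24.4 and 28.2 CPM in the controls against 32.4 and 34.7 in ATO (log2 fold change 0.35 ± 0.11, edgeR adjusted p = 0.0986). Irf7, the amplifier of type I interferon production, had 31 and 11 reads in the controls against 44 and 28 in ATO, with overlapping levels (0.58 ± 0.44). Without control replicate 1 its log2 fold change was 1.53, but with that library as the only control it was 0.0021, and it passed in neither case. Irf2, a repressor of interferon-induced genes, was at 23.8 and 21.7 in the controls against 26.1 and 23.7 in ATO (0.13 ± 0.12). Irf1, a factor that interferon gamma induces quickly, was at 0.01 ± 0.18. Irf8 and Irf5, which mark myeloid cells, were at 0.19 ± 0.24 and -0.11 ± 0.29.

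Of the 6 guanylate-binding protein genes, large GTPases that interferon gamma induces and that attack membranes around pathogens, 1 rose. Gbp2 (ENSMUSG00000028270, chr3:142620602-142638008, plus strand) was at 1.899 and 0.993 CPM in the controls against 3.85 and 3.49 in ATO, from 28, 15, 67 and 58 reads. The ATO libraries lay close together and both above the controls (log2 fold change 1.34 ± 0.34, n = 2 per group, edgeR adjusted p = 0.0441). The call did not hold without control replicate 2 (0.94, adjusted p = 0.243) or without ATO replicate 1 (1.27, adjusted p = 0.109), nor in DESeq2's Wald test (adjusted p = 0.148). In the authors' deposited table Gbp2 was the 1 gene of the 64 marked as differentially expressed, with an adjusted p of 0.0451, while H2-Aa had 0.0529; that mark was given to 0.974% of all genes.

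Its neighbours on chromosome 3 differed less. Gbp5, which assists inflammasome assembly, was at 2.44 and 2.32 CPM in the controls against 2.87 and 3.43 in ATO (log2 fold change 0.40 ± 0.29). Gbp3 was at 3.595 and 3.64 in the controls against 4.59 and 3.73 in ATO (0.20 ± 0.25), and Gbp7 was at 4.002 and 4.44 in the controls against 5.63 and 4.03 in ATO (0.20 ± 0.25). The sign of Gbp7 turned to -0.065 without ATO replicate 1. Gbp4 and Gbp9, which lie on chromosome 5, were at -0.09 ± 0.37 and -0.01 ± 0.25 with overlapping groups.

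The antiviral and other induced genes gave 0 of 17 past the threshold, with a median log2 fold change of 0.41 and 13 above 0. Both ATO libraries lay above both controls in 8 of the 17, against 24.8% of all genes. Ifitm3, a membrane protein that blocks entry of viruses, was at 6.72 and 5.23 CPM in the controls against 10.96 and 8.91 in ATO (0.74 ± 0.20, edgeR adjusted p = 0.0579). It passed without ATO replicate 2 (0.88, adjusted p = 0.0207), while without control replicate 2 it was at 0.56 (adjusted p = 0.286). Rsad2, which encodes viperin, had 12 and 17 reads in the controls against 28 and 36 in ATO, or 0.814 and 1.13 against 1.61 and 2.17 CPM (0.95 ± 0.40, edgeR adjusted p = 0.221). Bst2, or tetherin, which holds budding virus at the cell surface, was at 2.65 and 2.85 in the controls against 3.50 and 5.18 in ATO (0.66 ± 0.28). Ifi203, of a family of nuclear proteins that bind DNA, was at 6.17 and 6.95 in the controls against 9.53 and 8.61 in ATO (0.47 ± 0.19). The related genes Ifitm2 and Ifitm1 were at 0.43 ± 0.20 and 0.62 ± 0.32, also with both ATO libraries higher. Of the exons of Ifitm2 40.9% overlap another annotated gene.

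Other genes of the group, among them classical readouts of type I interferon, had smaller or less certain differences in either direction. Isg15, a ubiquitin-like modifier, was at 1.02 and 1.19 CPM in the controls against 1.03 and 1.505 in ATO (log2 fold change 0.19 ± 0.41). Ifit3, an antiviral RNA-binding protein, was lower in both ATO libraries, at 3.56 and 3.19 against 4.21 and 3.91 in the controls, without passing (-0.26 ± 0.25, edgeR adjusted p = 0.642). Its near copy Ifit3b was at -0.21 ± 0.30. Ifit3 shares 51.2% of its 50-base stretches with other genes, most often Ifit3b, so their reads may be exchanged. Ifit2, which binds viral RNA, was at 0.03 ± 0.20, Ifit1 at 0.65 ± 0.42, Ifit1bl1 at -0.10 ± 0.31 and Oasl2, of the oligoadenylate synthetase family, at 0.02 ± 0.31, each with overlapping groups. Ifi27, the most abundant of these genes per length, was at 0.19 ± 0.11 and Ifi35 at 0.56 ± 0.31, both with the ATO libraries above the controls. Ifi47 was at 0.41 ± 0.45 and Ifitm10 at -0.23 ± 0.14, with overlapping groups. H2-Ke6, which the symbol rule takes although it encodes an enzyme outside antigen presentation, was at 3.46 and 3.31 CPM in the controls against 3.10 and 2.89 in ATO (-0.18 ± 0.27), and 86.4% of its exons overlap another annotated gene.

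**Figure D3:**
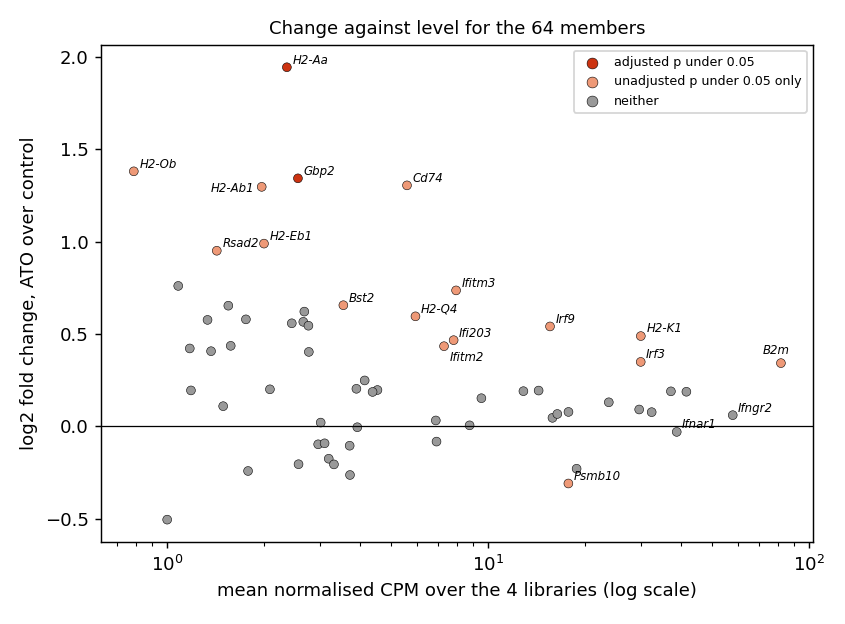
Log2 fold change of ATO over control against the mean normalised CPM of each of the 64 genes, on a log axis, with red for an adjusted p under 0.05 and orange for an unadjusted p under 0.05 only. Both red points, H2-Aa and Gbp2, lie below 5 CPM, and the abundant genes Ifngr2 and Ifnar1 sit near 0.

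Levels per length, as the mean of the deposited FPKM over the 4 libraries, ran from 0.150 in H2-Ob to 94.9 in B2m. B2m was followed by Ifi27 at 25.3, H2-D1 at 16.1 and Ifngr2 at 15.3 FPKM, so that the class I light chain stood well above every other gene of the set. H2-Aa was at 0.623 and Gbp2 at 1.02 FPKM. The median over the 64 genes was 1.72 FPKM, against 4.98 over all genes, and 37 of the 64 had a mean under 5 CPM. By position, 24 of the 64 genes lie on chromosome 17, from 33915899 to 37274484 (GRCm38), where the MHC is found. Their median log2 fold change was 0.22. The 5 Ifit genes on chromosome 19 had a median of -0.10, and the 4 Gbp genes on chromosome 3 had 0.30.

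The libraries of a group also differed from each other across the set. ATO replicate 1 was the highest library for 28 of the 64 genes (43.8%, against 25.1% of all genes), and control replicate 2 was the lowest for 33 (51.6%, against 28.1%). Relative to the mean of the controls, the median class II gene stood at log2 0.18 and -0.20 in the controls against 1.36 and 0.76 in ATO. The median class I gene stood at 0.16 and -0.17 in the controls against 0.39 and 0.06 in ATO, so that ATO replicate 2 fell between the controls. The antiviral group had its higher ATO value in replicate 2 instead, with 0.05 and -0.05 in the controls against 0.15 and 0.31 in ATO.

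As in class I and class II genes, the border macrophage markers were highest in ATO replicate 1 and lowest in control replicate 2. Of 8 such markers 6 were in the table (Pf4 and Ms4a7 were not analysed here), and 0 passed. Their summed level was 24.3 and 18.6 CPM in the controls against 34.6 and 24.9 in ATO. The median marker stood at log2 0.44 and -0.65 relative to the mean of the controls in the control libraries, and at 1.02 and 0.40 in ATO, so that control replicate 1 lay slightly above ATO replicate 2. Mrc1, the mannose receptor, was at 3.60 and 1.32 CPM in the controls against 5.74 and 3.73 in ATO, and Lyve1, a hyaluronan receptor, was at 0.678 and 0.331 against 2.53 and 1.204. Lyve1 was under 1 CPM in both controls, so it had to be higher in ATO to be in the table. Cd163 and Cbr2 overlapped between the groups, at log2 fold changes of 0.53 and 0.41. Stab1 was at 0.21 and F13a1 at 1.14, both with the ATO libraries above the controls. The 10 leptomeningeal markers had medians of 0.35 and -0.47 in control and 0.97 and 0.45 in ATO. Of these, Igf2, a growth factor, rose (log2 fold change 1.70, edgeR adjusted p = 0.00517) and Dcn, which encodes decorin, fell (-0.56, edgeR adjusted p = 0.00488). The part of these cells in the class II and Gbp2 results was not tested.

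Other immune cells were represented by few markers apart from microglia. Of 12 microglia markers 0 passed, and their summed level was 429 and 403 CPM in the controls against 402 and 454 in ATO. Ctss, the cathepsin that trims the invariant chain and is abundant in microglia, was at a log2 fold change of 0.03 ± 0.10. For dendritic cells 2 of 8 markers were in the table, Flt3 and Zbtb46, with a summed level of 18.9 and 18.6 CPM in the controls against 23.2 and 22.3 in ATO. Neither passed, and their part in the class II values was not tested. Of the markers of T and natural killer cells 1 of 8 was in the table: Lck, at 2.17 and 2.12 CPM in the controls against 1.44 and 1.87 in ATO. Of the B cell markers 1 of 6 was in the table: Ighm, at 11.3 and 7.62 in the controls against 11.1 and 5.84 in ATO, higher in replicate 1 of both groups. Of the neutrophil markers 0 of 6 were in the table, and the absent markers were not analysed here. The 8 endothelial markers summed to 303 and 235 CPM in the controls against 261 and 248 in ATO, and 0 passed.

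**Figure D4:**
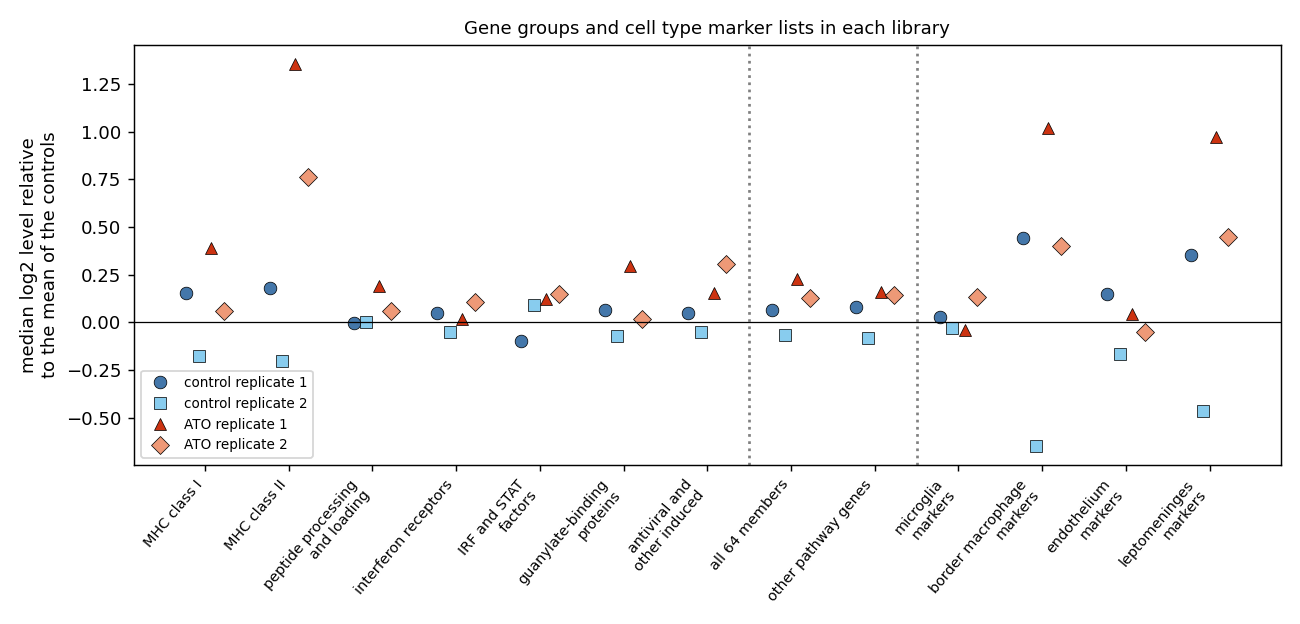
Median log2 level relative to the mean of the 2 controls, in each library, for the gene groups (left), all 64 genes and the other pathway genes (middle) and 4 cell type marker lists (right). The class II genes and the border macrophage markers have ATO replicate 1 highest, at 1.36 and 1.02, and control replicate 2 lowest, at -0.20 and -0.65. The class I and guanylate-binding genes, all 64 genes, the other pathway genes and the leptomeningeal markers have the same highest and lowest library. Control replicate 1 lies above ATO replicate 2 for the class I genes, the guanylate-binding genes and the border macrophage markers. It lies below ATO replicate 2 for the class II genes, all 64 genes, the other pathway genes and the leptomeningeal markers. The receptors and the microglia markers stay within 0.15 of 0.

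Other genes of these pathways were followed in a list of 64, of which 53 were in the table. Of the 53, 2 rose and 0 fell, with a median log2 fold change of 0.19 and 41 above 0, close to the values of the genes above. Rtp4 and Tgtp2 are among the 41. Both were under 1 CPM in both controls, so they had to be higher in ATO to be in the table. Lgals3bp, a secreted galectin-binding protein that interferon induces, was at 8.95 and 8.15 CPM in the controls against 17.8 and 19.7 in ATO. It rose 2.19-fold (log2 fold change 1.13 ± 0.15, edgeR adjusted p = 0.000444), with the groups well apart. Pdia3 is a disulfide isomerase of the class I loading complex that also folds other glycoproteins. It rose 1.22-fold from 210 and 218 to 255 and 269 CPM (0.29 ± 0.07, edgeR adjusted p = 0.0435). However, it did not pass when any of the 4 libraries was left out.

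Of the rest, the loading chaperone Calr had a log2 fold change of 0.23 ± 0.08 (edgeR adjusted p = 0.108). The interferon-induced genes Rtp4 and Slfn5 were at 1.58 ± 0.44 and 0.74 ± 0.21 (edgeR adjusted p = 0.0607 and 0.0638), Rtp4 from 8 and 14 reads in the controls against 29 and 46 in ATO. Rtp4 was under 1 CPM in both controls, so it had to be higher in ATO to be in the table. Rtp4 passed without ATO replicate 1 (1.899, adjusted p = 0.0152), and Slfn5 passed without control replicate 1 (1.10, adjusted p = 0.0244). Rtp4 was at 1.17 when ATO replicate 2 was left out (edgeR adjusted p = 0.331), and without control replicate 2 Slfn5 was at 0.45 (edgeR adjusted p = 0.334). Rfxap, a subunit of the factor that binds class II promoters, was at 0.26 ± 0.10 (edgeR adjusted p = 0.205). The class II transactivator gene Ciita, the master regulator of class II transcription, was at 2.71 and 1.32 CPM in the controls against 2.07 and 1.87 in ATO, so the groups overlapped (-0.03 ± 0.37), and its class I counterpart Nlrc5 was at 0.49 ± 0.46. The sensors Ifih1 and Ddx58 were at 0.58 ± 0.30 and 0.31 ± 0.22, and the kinases Jak1 and Tyk2 at -0.06 ± 0.08 and -0.05 ± 0.12. Socs1, Usp18, Tmem173, Mb21d1, Zbp1, Mx1, Mx2, Cxcl10, Ccl5, Ifnb1 and Ifng were not analysed here.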

How the data were processed

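Counts of reads per gene and FPKM values were deposited by the authors, per the file headers, for 4 hippocampal libraries (2 control, 2 ATO; 14832214 to 17251032 counts each). The same table has the authors' comparison (log2 fold change, p-value with its adjusted form, mark of differentially expressed genes), per the file headers. The submitters' processing notes name GRCm38 and, without roles, limma 3.47.15, R 4.1.0, HTSeq 0.6.1, HISAT2 2.0.1, cutadapt 1.9.1 and FastQC 0.10.1. Settings and strand use were not given in the sources used here. Each of the 15713 genes has over 1 CPM in at least 2 libraries, so a member below that level is not analysed here, and a gene that passed only through its higher group had to differ. H2-Ob, Rtp4 and Lyve1 are among such genes.

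edgeR 4.0.16 under R 4.3.3 was run on the deposited counts (TMM, quasi-likelihood test, all 4 libraries, no covariate), with Benjamini-Hochberg adjustment over the whole table; filterByExpr removed 0 genes, and the biological coefficient of variation was 7.16%. An SE is the log2 fold change divided by the square root of F, and its 95% interval uses the fit's degrees of freedom. Normalised CPM are counts over the TMM-scaled library size. Alternatives were DESeq2 1.42.0, limma-voom (limma 3.58.1), other scalings, a filter, a replicate block and leaving out each library. The fits were tested on simulated data. Positions come from GENCODE vM21 (GRCm38). The 50-base stretches and exon overlaps were computed from its transcripts and exons. Medians relative to the controls used log2 of CPM plus 0.1.

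1 of the 64 genes is counted but not reported here by name. The members and lists were chosen with earlier results of these data known. By rule, values in each library are given for genes past the threshold, up to 4 genes with the smallest p in each role group, 14 fixed genes of the pathway and up to 6 other pathway genes; others named were chosen after their values were seen, among them H2-Ob, H2-Q6, H2-Q7, H2-DMa, Isg15, Ifit3, Ciita, Mrc1, Lyve1, Igf2, Dcn and Ctss.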

Additional observations from a re-analysis of the deposited data

How the results depend on the processing

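Of the 64 genes, 2 passed in the edgeR fit, and the count was also 2 with DESeq2's size factors and with library size only. It was 0 when genes were required to have a mean of at least 5 CPM, which leaves out both H2-Aa and Gbp2 and keeps 27 of the 64. It was 1 in DESeq2's Wald test (H2-Aa) and 1 in limma-voom (Gbp2). Leaving out each library in turn gave 0 to 8 genes: 0 without ATO replicate 1, 1 without control replicate 2, 3 without control replicate 1 and 8 without ATO replicate 2; where an arm has 1 library, it is assumed to vary like the other group. The log2 fold change was above 0 in 43 to 51 of the 64 genes when each library was left out, against 50 with all libraries. The median log2 fold change of the 64 genes lay between 0.13 and 0.31 when each library was left out, the highest without control replicate 1, and between 0.15 and 0.20 otherwise. Of the other pathway genes 1 to 2 passed when each library was left out. Over all genes the count was 586, with 222 to 611 when each library was left out and 316 in DESeq2's Wald test.

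With the replicate number as a block 9 of the 64 genes passed (B2m, Cd74, Gbp2, H2-Aa, H2-Ab1, H2-K1, Ifitm3, Irf3 and Irf9), 5 of the other pathway genes and 1366 of all genes. Adjusted p fell from 0.0787 to 0.000523 for Cd74, from 0.134 to 0.00297 for H2-K1 and from 0.0877 to 0.00512 for B2m. The deviations of same-numbered libraries correlated at 0.208 over 12086 genes. There are only 2 pairs and the labels do not say what a number shares, so whether the numbers pair the libraries is not settled, and all other values are given without the block.

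Among the genes named by rule, signs turned only when a library was left out: the log2 fold change ranged from -0.068 to 0.22 for Ifnar2, -0.076 to 0.015 for Ifnar1, -0.069 to 0.18 for Ifngr2, -0.012 to 0.17 for Stat2, -0.091 to 0.42 for H2-D1, -0.065 to 0.41 for Gbp7 and -0.52 to 0.049 for Tap1. The cause was not tested. Counts are low for H2-Aa and Gbp2, at 10 to 96 reads per library, and 37 of the 64 genes have a mean under 5 CPM.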
